A study of Mus musculus with 6 samples.

Results

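The 9 genes described here encode the machinery of MHC class II antigen presentation: the chains of the class II molecules (H2-Aa, H2-Ab1, H2-Eb1), the invariant chain (Cd74), the peptide exchange factor (H2-DMa, H2-DMb1, H2-DMb2), the transactivator Ciita and the protease cathepsin S (Ctss). They were chosen by name, all 9 were found among the 53379 genes of the deposited count files, and all 9 were among the 19339 genes that passed the filter on low counts. Expression was measured by RNA sequencing of adult mouse intestinal stem cells, taken from proximal small-intestinal crypts and sorted for bright Lgr5-EGFP fluorescence. The 3 control libraries came from C57BL/6 mice of the genotype Lgr5-EGFP-IRES-CreERT2;Rosa-tdTomato, and the 3 Klf5-KO-labelled libraries from mice that carried Klf5fl/fl in addition to these alleles. All mice were given tamoxifen, 1 mg daily for 5 days, which activates the Cre recombinase made from the Lgr5 locus, labels the cells with tdTomato and, in the floxed mice, is meant to delete the zinc finger factor gene Klf5. The labels do not say whether each library came from a separate mouse, so the p-values below reflect how these libraries differ, which may be technical.

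The libraries held 61563625 to 77666540 counts. Klf5 itself, counted over the whole gene, went against the labels: it stood at 480.3 to 546.5 CPM (a gene's read count relative to the TMM-scaled library size) in the controls and at 876.9 to 918.4 CPM in the Klf5-KO-labelled libraries. A whole-gene count does not show whether the floxed exons were removed, and directions are stated throughout as the Klf5-KO-labelled group against the control-labelled group. The sorted cells carried epithelial and stem cell transcripts, with Epcam at 939.9 to 1100 CPM over the 6 libraries and Lgr5 at 127.8 to 162.8 CPM in the controls. Of 10 epithelial and stem cell markers, 1 rose and 7 fell, where 13.3 and 12.5% of all tested genes did. Lgr5 fell to 81.16 to 96.8 CPM (log2 fold change −0.68, adjusted p = 0.0027, edgeR), and the stem cell gene Olfm4 fell by 1.65 on the log2 scale. The part of this fall in the class II differences was not tested. By Xist and Y-linked transcripts, control replicate 1 and Klf5-KO replicate 3 were male and the other libraries female. Control replicate 3 stood apart by Paneth cell markers, whose summed level was 16970 CPM there against 1486 and 1745 CPM in the other controls and 7820 to 9794 CPM in the Klf5-KO-labelled libraries.

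MHC class II molecules display peptides from the endosomal pathway to CD4+ T cells. An alpha and a beta chain assemble with the invariant chain Cd74, which cathepsins trim down to a short peptide, CLIP, and H2-DM then exchanges CLIP for antigenic peptides. The coactivator CIITA switches the whole set on by docking to factors that sit on a conserved promoter module: the RFX complex and CREB-type factors on the X box, and NF-Y on the Y box. Professional antigen-presenting cells make class II constitutively. Epithelial cells make it chiefly under interferon gamma, and intestinal crypt stem cells are among the epithelial cells known to carry it.

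The promoter windows of H2-Aa, H2-Eb1, H2-DMb1 and H2-DMb2 hold matches to sequences of this module. RefSeq windows on GRCm38.p6 (the assembly of mm10), from 250 bases before to 50 bases after the start site, matched 6 of the 9 genes; those of H2-Ab1, Cd74 and Ciita were not used here, and both windows of H2-DMa start 12350 and 9664 bases from the gene start in the count files, so they are not shown, and neither held a match to the sequences searched. The windows are printed 5′ to 3′ on the gene's own strand to show what 4 class II promoters share and Ctss lacks. Capitals mark matches, on either strand, to the Y box TGATTGG, to an X box sequence searched with its base 4 free (AACTGATGATG in H2-Eb1 and H2-DMb1, AACCGATGATG in H2-DMb2), to the palindromic X2 sequence TGACGTCA or to an interferon-response sequence searched with its middle bases 5 and 6 free (GAAACCGAAA in Ctss), and no match overlapped a match to another motif.
H2-Aa, chr17:34287774-34288073, minus strand: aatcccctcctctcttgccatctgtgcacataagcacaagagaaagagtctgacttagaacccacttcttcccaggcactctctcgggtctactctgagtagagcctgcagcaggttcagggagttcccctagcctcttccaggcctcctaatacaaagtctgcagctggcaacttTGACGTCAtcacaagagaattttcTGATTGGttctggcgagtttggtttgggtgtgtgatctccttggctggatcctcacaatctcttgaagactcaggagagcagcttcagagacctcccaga
H2-Eb1, chr17:34305617-34305916, plus strand: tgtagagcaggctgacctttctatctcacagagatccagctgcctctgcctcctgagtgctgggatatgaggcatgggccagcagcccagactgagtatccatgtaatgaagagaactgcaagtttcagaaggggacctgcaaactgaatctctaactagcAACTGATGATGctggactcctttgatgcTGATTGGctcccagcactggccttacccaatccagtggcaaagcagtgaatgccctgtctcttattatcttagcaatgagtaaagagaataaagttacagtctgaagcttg
H2-DMb1, chr17:34152941-34153240, plus strand: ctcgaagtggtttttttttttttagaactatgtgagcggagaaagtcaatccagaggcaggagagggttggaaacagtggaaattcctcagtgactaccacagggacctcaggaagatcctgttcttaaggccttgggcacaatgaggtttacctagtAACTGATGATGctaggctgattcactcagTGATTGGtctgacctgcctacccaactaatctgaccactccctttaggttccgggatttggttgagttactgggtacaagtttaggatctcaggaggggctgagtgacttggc
H2-DMb2, chr17:34144999-34145298, plus strand: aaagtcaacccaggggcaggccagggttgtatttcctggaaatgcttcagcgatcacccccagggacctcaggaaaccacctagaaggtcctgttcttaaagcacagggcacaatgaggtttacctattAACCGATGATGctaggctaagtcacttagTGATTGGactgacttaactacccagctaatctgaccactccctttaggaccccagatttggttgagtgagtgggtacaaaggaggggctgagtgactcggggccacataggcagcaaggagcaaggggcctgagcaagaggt
Ctss, chr3:95526536-95526835, plus strand: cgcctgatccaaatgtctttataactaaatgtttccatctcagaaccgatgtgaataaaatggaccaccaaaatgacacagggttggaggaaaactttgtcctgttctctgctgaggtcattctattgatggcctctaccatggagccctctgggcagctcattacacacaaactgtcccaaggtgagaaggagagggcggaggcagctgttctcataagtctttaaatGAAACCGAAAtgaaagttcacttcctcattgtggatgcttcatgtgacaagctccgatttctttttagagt

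The Y box lay at position −50 in H2-Aa, −61 in H2-Eb1, −63 in H2-DMb1 and −92 in H2-DMb2, counted from the RefSeq start site at 0. The X box sequence began at −89 in H2-Eb1, −92 in H2-DMb1 and −121 in H2-DMb2, and H2-Aa had the X2 sequence at −74 instead. Among 32841 RefSeq promoter windows of 300 bases, 7.82% held the Y box, 0.0609% the X box sequence, 1.79% the X2 sequence and 0.174% the Y box with either of these. The Ctss window held no X or Y match and 1 interferon-response match, at −21, a sequence found in 3.44% of the windows. A match is a description of letters and not a measured binding site. The H2-DMb1 and H2-DMb2 windows were 77.4% identical over 270 aligned columns, and the genes stood far apart in level (below). The H2-DMb2 start site in RefSeq lies 1942 bases from the start of the gene in the count files.

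Class II transcripts were abundant in every library. Per exon length, Cd74 stood at 434 ± 182 CPM per kb in the controls and at 714 CPM per kb in the Klf5-KO-labelled libraries (SD, n = 3), which ranked it 78 and 42 among 21865 protein-coding genes. On the same scale H2-Eb1 and H2-Ab1 stood at 130 ± 68 and 126 ± 68.5 CPM per kb in the controls, ranks 263 and 277, and did not differ from each other beyond their spread. H2-Aa followed at 43.9 ± 25.7 CPM per kb, rank 800. H2-DMb1, Ctss and H2-DMa came next at 18.8 ± 8.1, 18.6 ± 0.62 and 17.4 ± 5.1 CPM per kb, within each other's spread, then Ciita at 10.2 ± 5.7 and H2-DMb2 at 0.482 ± 0.149 CPM per kb. Together the 9 genes held 0.0728 to 0.179% of the scaled counts in the controls and 0.186 to 0.225% in the Klf5-KO-labelled libraries.

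**Figure D1:**
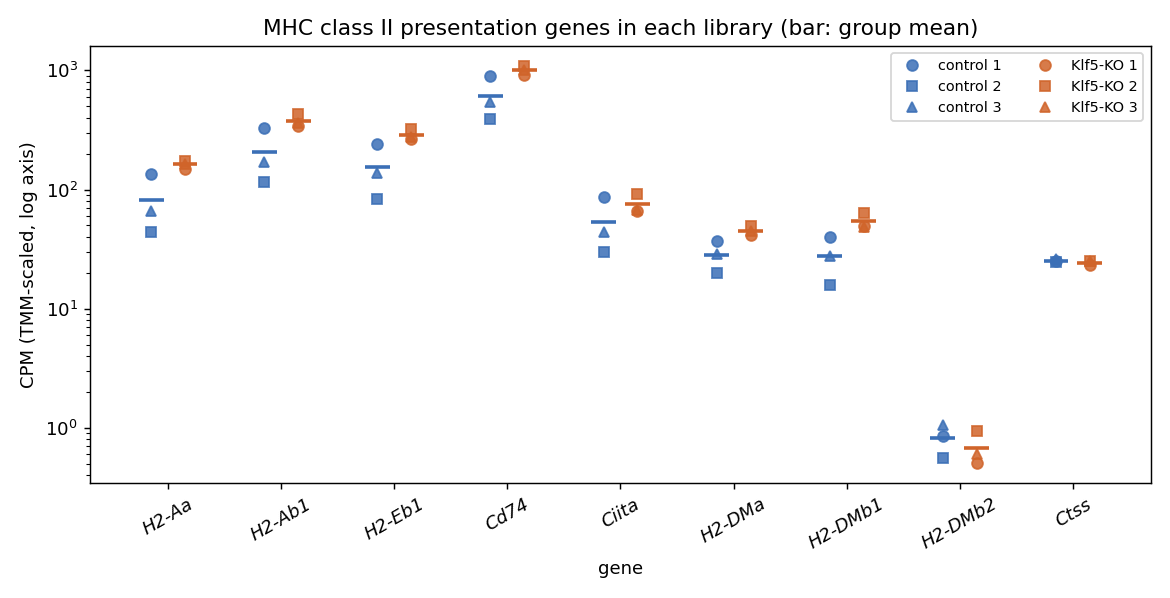
Level of each of the 9 genes in each library, in TMM-scaled CPM on a log axis; blue points are controls, orange points are Klf5-KO-labelled libraries, and bars are group means. For H2-Aa, H2-Ab1, H2-Eb1, Cd74, H2-DMa and H2-DMb1 control 1 lies close under the orange points and controls 3 and 2 lie below it, while Ctss shows no such spread.

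The chain genes were higher on average in the Klf5-KO-labelled libraries, but none passed the threshold, and the controls differed widely. H2-Aa, the gene of the I-A alpha chain (chromosome 17, 34282744 to 34287827, minus strand), had 136.3, 44.22 and 66.44 CPM in control replicates 1, 2 and 3 and 149.3, 173 and 165.4 CPM in Klf5-KO replicates 1, 2 and 3. The groups did not overlap, but control replicate 1 was much nearer to the Klf5-KO-labelled libraries than to the other controls. The log2 fold change was 0.98 (SE 0.33, 95% interval 0.25 to 1.71, adjusted p = 0.0527, edgeR's quasi-likelihood test). H2-Ab1, the gene of its partner beta chain (34263209 to 34269418, plus strand), had 331.2, 115.6 and 170 CPM in the controls and 343.6, 427.6 and 359.3 CPM in the Klf5-KO-labelled libraries. Control replicate 1 again lay just under the lowest of the latter, and the difference was 0.87 on the log2 scale (SE 0.31, adjusted p = 0.0666, edgeR). H2-Eb1, the I-E beta chain gene (34305877 to 34316199, plus strand), had 241.9, 83.57 and 137.8 CPM in the controls and 265.5, 319.7 and 274.6 CPM in the Klf5-KO-labelled libraries, a log2 fold change of 0.89 (SE 0.30, adjusted p = 0.0574, edgeR). It followed the same order of libraries as the I-A chains. C57BL/6 mice carry a disabled I-E alpha gene, annotated H2-Ea-ps, which had 0 to 7 counts per library; 3 counts, the most that a count of 0 allows for, are 0.0389 to 0.0484 CPM, for counting error only. The beta chain gene H2-Eb2, the most abundant of the other class II chain genes, was at 0.0161 to 0.399 CPM.

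Cd74 encodes the invariant chain, which holds the peptide groove and directs class II to endosomes (chromosome 18, 60803848 to 60812646). It was the most abundant of the members, at 893.5, 393.7 and 547.3 CPM in control replicates 1, 2 and 3 and at 921.3, 1094 and 1007 CPM in Klf5-KO replicates 1, 2 and 3. All 3 Klf5-KO-labelled libraries lay above all 3 controls, control replicate 1 by a narrow margin, with a log2 fold change of 0.72 (SE 0.25, adjusted p = 0.0611, edgeR).

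Both chains of H2-DM that are expressed in these cells rose, and they were the only members past the threshold. H2-DMa (chromosome 17, 34135182 to 34139101) had 36.86, 20.05 and 28.63 CPM in the controls and 41.75, 49.55 and 44.67 CPM in the Klf5-KO-labelled libraries (log2 fold change 0.67, SE 0.19, adjusted p = 0.0283, edgeR). Its spread between controls was the smallest among the chain genes, at 1.84 times from lowest to highest. H2-DMb1 (34153072 to 34160230) had 40.06, 15.98 and 27.52 CPM in the controls and 49.96, 64.21 and 48.26 CPM in the Klf5-KO-labelled libraries (log2 fold change 0.96, SE 0.27, adjusted p = 0.0295, edgeR). The groups overlapped for neither gene. Its tandem copy H2-DMb2 (34143307 to 34151553) had 43 to 66 counts in the controls and 35 to 60 in the Klf5-KO-labelled libraries, or 0.558 to 1.065 and 0.511 to 0.935 CPM, with overlapping groups and a log2 fold change of −0.27 (SE 0.34, 95% interval −1.02 to 0.49, adjusted p = 0.599, edgeR). Of the 50-base sequences in H2-DMb1 transcripts 22.7% also occurred in transcripts of other genes, in each case of H2-DMb2, and of the 100-base sequences 11.3%, so reads from these stretches may have gone uncounted or to either copy. For H2-Aa it was 0.488% of 50-base sequences, and for H2-Ab1, H2-Eb1, H2-DMa, Cd74, Ciita and Ctss none.

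Ciita, the transactivator gene (chromosome 16, 10488178 to 10527564, plus strand), did not separate the groups. It had 87.39, 30.22 and 43.79 CPM in control replicates 1, 2 and 3 and 65.61, 92.37 and 67.19 CPM in Klf5-KO replicates 1, 2 and 3. Control replicate 1 exceeded 2 of the 3 Klf5-KO-labelled libraries, with a log2 fold change of 0.48 (SE 0.32, 95% interval −0.25 to 1.21, adjusted p = 0.309, edgeR). The count sums all exons, so the separate promoters from which Ciita is transcribed in dendritic cells, B cells and interferon-treated cells cannot be told apart. Ctss, which finishes the trimming of the invariant chain in many antigen-presenting cells (chromosome 3, 95526786 to 95556403), had 25, 24.48 and 26.13 CPM in the controls and 23.09, 24.97 and 25.08 CPM in the Klf5-KO-labelled libraries. Its levels overlapped, its log2 fold change was −0.05 and the 95% interval ran from −0.25 to 0.15 (adjusted p = 0.727, edgeR), so a rise of the size seen for the chains lies outside that interval.

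In all, 2 of the 9 members were called higher at an adjusted p under 0.05 (edgeR), where 13.3% of all tested genes were called higher and 12.5% lower. No member was called lower, and none had a negative change at an unadjusted p under 0.05. At an unadjusted p under 0.05, 6 members were higher with edgeR and 5 with DESeq2, which also called 2. In 6 members every Klf5-KO-labelled library lay above every control, against 22.2% of all tested genes, and no member lay wholly below, against 21% of all tested genes. The median log2 fold change of the 9 was 0.72, and that of all tested genes −0.01. More cells carrying these transcripts and more transcript per cell cannot be told apart in bulk libraries.

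**Figure D2:**
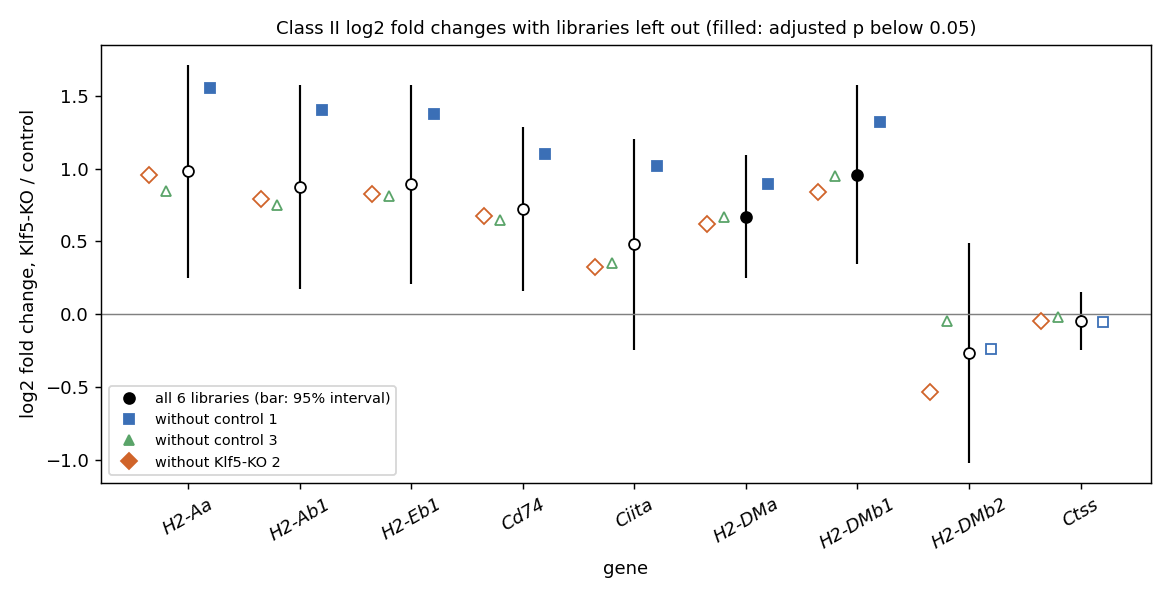
Log2 fold change of each member, Klf5-KO over control, in all 6 libraries (black, with 95% interval) and without control 1, control 3 or Klf5-KO 2; filled symbols have an adjusted p below 0.05 in edgeR. Leaving out control 1 raises 7 genes to between 0.90 and 1.56, all filled; leaving out control 3 or Klf5-KO 2 leaves no filled symbol.

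The number of members called turned on single libraries, most of all on control replicate 1. Without it 7 of the 9 were called higher (edgeR), with log2 fold changes of 1.56 for H2-Aa (adjusted p = 6.2e-04), 1.4 for H2-Ab1 (0.0012), 1.37 for H2-Eb1 (0.0023), 1.32 for H2-DMb1 (0.0049), 1.10 for Cd74 (0.0028), 1.02 for Ciita (0.0083) and 0.90 for H2-DMa (0.0057). Without control replicate 3, or without any 1 of the 3 Klf5-KO-labelled libraries, no member was called, though 2 (without control replicate 3) and 5 or 6 (without a Klf5-KO library) kept an unadjusted p under 0.05; H2-DMa and H2-DMb1 then had adjusted p-values of 0.0531 to 0.0899. With sex as a covariate, which sets control replicate 1 beside Klf5-KO replicate 3, 6 members were called, and H2-Aa had an adjusted p of 0.0163. Control replicate 1 was the only male control, and the male Klf5-KO-labelled library lay between its 2 female counterparts for H2-Aa, H2-Ab1, H2-Eb1, Cd74, H2-DMa and Ciita and below both for H2-DMb1.

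The controls differed more in 7 of the members than in most genes. The SD of log2 CPM over the 3 controls was 0.82 for H2-Aa, 0.77 for H2-Ab1, 0.77 for H2-Eb1, 0.78 for Ciita, 0.67 for H2-DMb1, 0.60 for Cd74 and 0.44 for H2-DMa. The median over the 10594 genes averaging 5 CPM or more was 0.13, and these 7 members lay between the percentiles 96.6 and 99.3. Ctss lay at percentile 10.7, with an SD of 0.05. Among the Klf5-KO-labelled libraries the same SD was 0.11 for H2-Aa, 0.17 for H2-Ab1, 0.14 for H2-Eb1, 0.12 for Cd74, 0.12 for H2-DMa, 0.23 for H2-DMb1 and 0.28 for Ciita, at percentiles 54.1 to 92.9, where the median of all these genes was 0.10. The highest Ciita level was 2.89 times the lowest among the controls and 1.41 times among the Klf5-KO-labelled libraries. Only 24 of the 10594 genes (0.227%) stood at least 2 times higher in control replicate 1 than the mean of the other controls, and H2-Aa, H2-Ab1, H2-Eb1 and Ciita were among them.

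Ratios between members varied less than their levels, and that of Ciita to H2-Ab1 separated the groups. Per exon length, H2-Aa stood at 0.360, 0.334 and 0.341 of H2-Ab1 in control replicates 1, 2 and 3 and at 0.380, 0.354 and 0.402 in Klf5-KO replicates 1, 2 and 3, while H2-Ab1 itself differed 2.87 times among the controls. H2-Eb1 stood at 1.04 ± 0.067 of H2-Ab1 in the controls and 1.05 ± 0.017 in the Klf5-KO-labelled libraries (SD, n = 3). Cd74 stood at 3.13, 3.96 and 3.74 times H2-Ab1 in the controls and 3.11, 2.97 and 3.25 times in the Klf5-KO-labelled libraries, lowest where class II was highest. Ciita stood at 0.0822, 0.0815 and 0.0802 of H2-Ab1 in the controls, nearly constant over that range, and at 0.0595, 0.0673 and 0.0583 in the Klf5-KO-labelled libraries. Thus all 3 Klf5-KO-labelled libraries had less Ciita for each H2-Ab1 transcript than any control, including control replicate 1, which had about as much H2-Ab1 as they did. The ratios of Ciita and H2-Eb1 to H2-Ab1 were chosen after their values were seen, and no test was made of them.

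**Figure D3:**
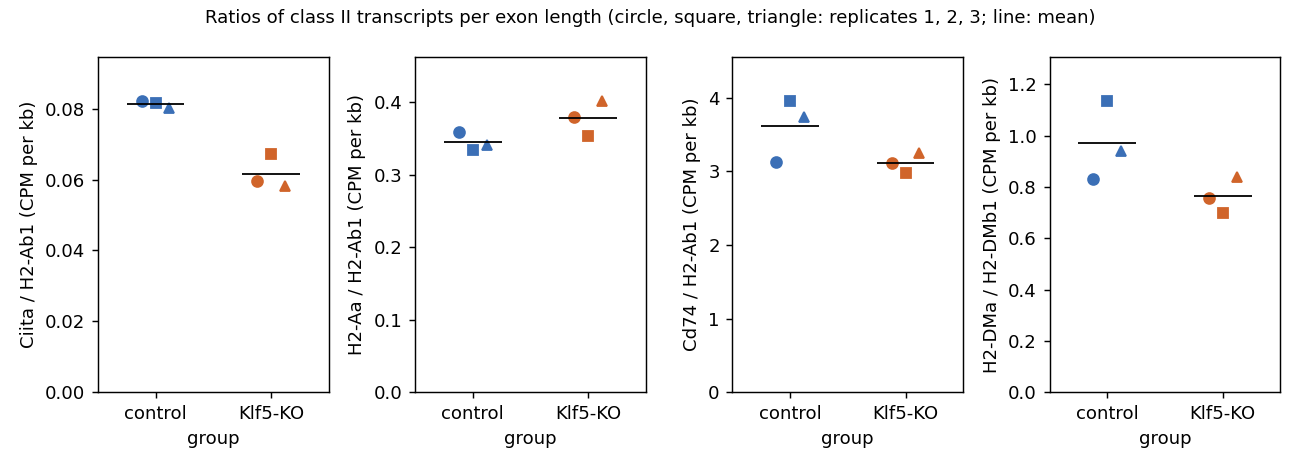
Ratios of CPM per kb of exon between members, from 0, in each library (circle, square and triangle are replicates 1, 2 and 3; the line is the mean). Ciita per H2-Ab1 is 0.0813 in the controls on average and 0.0617 in the Klf5-KO-labelled libraries with no overlap, while H2-Aa per H2-Ab1 is 0.345 and 0.378, Cd74 per H2-Ab1 3.61 and 3.11, and H2-DMa per H2-DMb1 0.970 and 0.764.

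Of the members, 6 lie in the class II region of chromosome 17, between 34135182 and 34316199. From H2-Oa to H2-Ea-ps, none of the 5 non-member genes averaging 1 CPM or more was called. Of all tested genes, 25.8% were called in either direction. Just beyond H2-Ea-ps, Btnl2 (34354822 to 34369493) was called higher, with a log2 fold change of 1.63 (adjusted p = 1.7e-04, edgeR). Brd2, a bromodomain gene at the edge of the region, stood at 475.2 to 596 CPM in the controls and, without overlap, at 437.6 to 449.5 CPM in the other group (adjusted p = 0.123, edgeR). The peptide transporter genes Tap1 and Tap2 and the immunoproteasome genes Psmb8 and Psmb9, which serve class I presentation, had log2 fold changes of −0.17, 0.51, 0.45 and 0.04, none called (adjusted p = 0.585, 0.0542, 0.170 and 0.862, edgeR). Tap1, Tap2, Psmb8 and Psmb9 were each highest in control replicate 1 among the controls, at 51.11, 22.52, 114.9 and 47.25 CPM. The genes of the B cell class II regulator H2-O, H2-Oa and H2-Ob, lie there too and had at most 12 and 6 counts in any library.

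Of 8 genes for factors at class II promoters, 1 rose and 1 fell, shares near the 13.3 and 12.5% of all tested genes. Rfx5, which encodes the DNA-binding subunit of the RFX complex, rose from 25.66 to 29.58 CPM in the controls to 34.47 to 43.00 CPM in the Klf5-KO-labelled libraries, without overlap (edgeR, log2 fold change 0.49, SE 0.11, adjusted p = 0.0093). Its partners Rfxank and Rfxap had log2 fold changes of 0.09 and 0.17 (adjusted p = 0.649 and 0.291, edgeR). Nfya, the gene of an NF-Y subunit, fell from 59.71 to 83.62 CPM to 47.54 to 53.34 CPM (edgeR, log2 fold change −0.59, SE 0.13, adjusted p = 0.0099). Nlrc5, the counterpart of Ciita for class I genes, was, like Ciita, lowest in control replicates 2 and 3, at 64.08, 11.93 and 23.5 CPM in control replicates 1, 2 and 3 and 38.75, 53.21 and 28.96 CPM in Klf5-KO replicates 1, 2 and 3 (adjusted p = 0.711, edgeR). Its highest level was that of control replicate 1.

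Of 12 tested antigen processing genes, 2 rose, 2 fell and 8 were not called, again near the 13.3 and 12.5% of all tested genes. Lamp2, a lysosomal membrane protein gene, rose from 57.7 to 59.03 CPM in the controls to 87.61 to 107.7 CPM (edgeR, log2 fold change 0.72, SE 0.09, adjusted p = 7.2e-04). Lgmn, the gene of the asparagine endopeptidase legumain, rose by 1.38 on the log2 scale (SE 0.36, adjusted p = 0.0219, edgeR), with Klf5-KO replicate 2 at 110.9 CPM far above replicates 1 and 3 at 44.27 and 37.43 CPM; robust dispersion (adjusted p = 0.119) ended its call, as did leaving out control replicate 1 or 2 (0.0536 and 0.0781). Ifi30, the thiol reductase GILT of lysosomes, fell from 90.41 to 115.6 CPM to 65.13 to 73.53 CPM (edgeR, log2 fold change −0.57, SE 0.11, adjusted p = 0.0046), and Ctsh, the cathepsin H gene, fell by 0.56 on the log2 scale (adjusted p = 0.0052, edgeR). Ctsl, the cathepsin that trims the invariant chain in thymic epithelium, overlapped between the groups, at 23.33 to 38.1 CPM and 30.91 to 39.43 CPM (adjusted p = 0.309, edgeR).

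The ligand gene Ifng had at most 2 counts in any library. Where 25.8% of all tested genes were called in either direction, 2 of 11 tested genes of interferon gamma signalling were. Of these, Jak1 rose by 0.31 on the log2 scale (adjusted p = 0.0414, edgeR) and Irf8 fell by 0.58 (adjusted p = 0.0171, edgeR); each call was lost when 1 of several libraries was left out (adjusted p up to 0.127 and 0.065), and that of Jak1 also with sex as a covariate (0.0696). Irf1, a factor that binds the interferon gamma promoter of Ciita, and the feedback inhibitor Socs1 had log2 fold changes of 0.16 and −0.07 (adjusted p = 0.426 and 0.824, edgeR).

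Of 26 genes induced by interferon gamma, 4 rose and 1 fell between the groups, where 13.3 and 12.5% of all tested genes did, and their median log2 fold change was 0.40. Cxcl10, a chemokine that draws activated T cells, rose from 5.23 to 9.46 CPM to 21.7 to 25.81 CPM (edgeR, log2 fold change 1.60, adjusted p = 5.6e-04). The adhesion molecule gene Icam1 rose by 1.96 on the log2 scale (adjusted p = 7.0e-04, edgeR), as did the guanylate-binding protein gene Gbp7 by 0.90 and the nucleic acid sensor gene Zbp1 by 1.24 (adjusted p = 0.0163 and 0.0369). Irgm1, an immunity-related GTPase gene, fell by 0.58 (adjusted p = 0.0163, edgeR). Single libraries left out ended the calls of Gbp7 (adjusted p = 0.0699 without Klf5-KO replicate 1), Irgm1 (0.0647 and 0.0614 without Klf5-KO replicate 1 or 2) and Zbp1 (0.0603 to 0.107 without control replicate 3 or Klf5-KO replicate 1 or 2). The call of Zbp1 was also lost with DESeq2 (0.0585), robust dispersion (0.0663) and sex as a covariate (0.0509). As for class II, control replicate 1 was the highest control for 25 of the 26 genes, and for 12 of 13 genes of class I presentation, against 31.2% of all tested genes. These 2 lists share Psmb8, Psmb9, Tap1 and Tap2, so their counts are not separate. Tgtp2 stood at 7.94, 0.79 and 1.76 CPM in control replicates 1, 2 and 3 and Igtp at 16.64, 4.23 and 7.41 CPM. For both, control replicate 1 lay above all Klf5-KO-labelled libraries, which had 2.85 to 5.98 and 10.59 to 12.3 CPM. This did not hold for all of the 26. Psmb8 and Ubd in control replicate 1 lay within the range of the Klf5-KO-labelled libraries, and Tap2 lay just below it. The class II chains, like Tap2, stood in control replicate 1 just below those libraries.

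**Figure D4:**
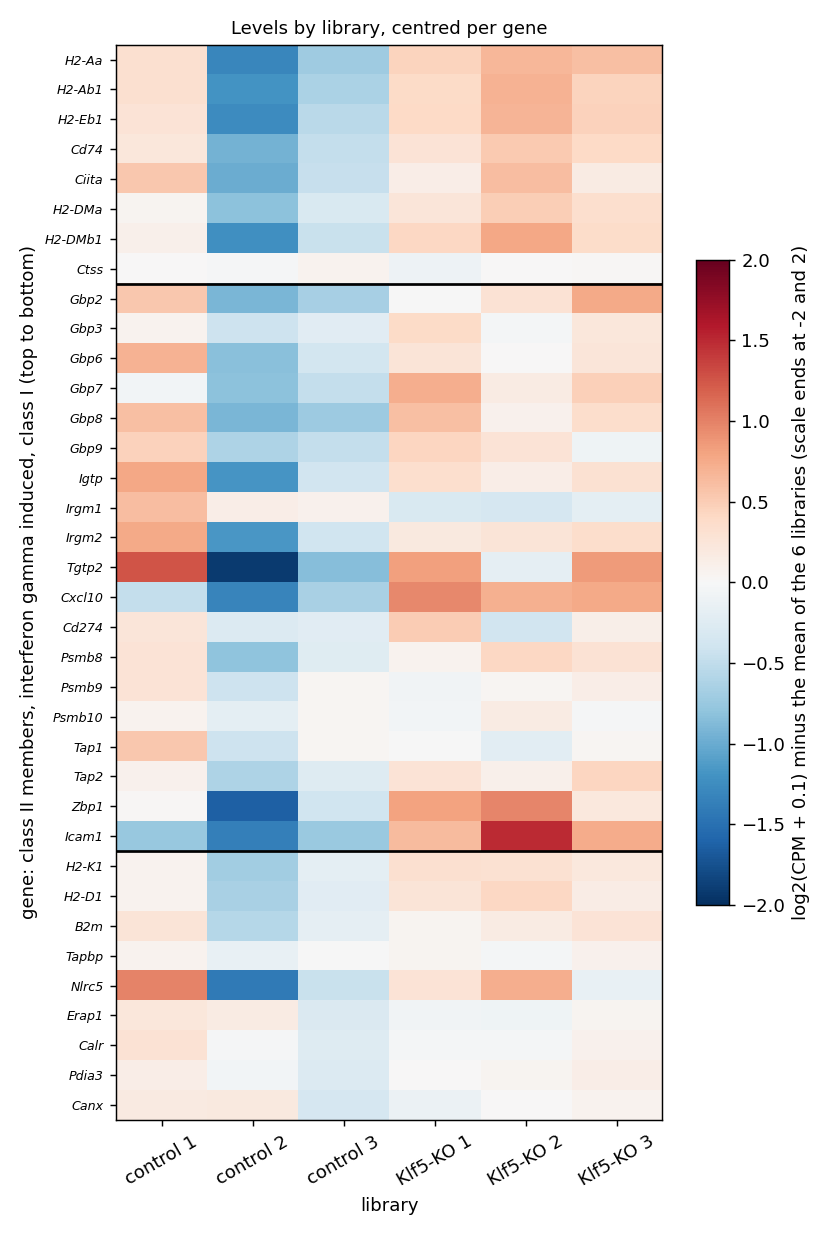
Log2(CPM + 0.1) of each gene minus its mean over the 6 libraries, for 8 class II members, interferon gamma induced genes and class I genes averaging 1 CPM or more (H2-DMb2 averages less); red is high, blue is low, and colours end at −2 and 2. Control 2 is blue and control 1 pale to red for most class II and interferon genes, Icam1 and Cxcl10 are blue in all controls, and Ctss is near white throughout.

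Class I presentation shared part of this pattern. Of its 13 tested genes, 2 were called higher and 11 were not called, a share near the 13.3% of all tested genes. Their median log2 fold change was 0.12. The heavy chain genes H2-K1 and H2-D1 both rose by 0.52 on the log2 scale (adjusted p = 0.0474 and 0.0476, edgeR), both calls being lost with upper-quartile scaling (0.0567 and 0.0572) and when any 1 of the 5 libraries other than control replicate 1 was left out (0.0717 to 0.128). Sex as a covariate also ended both calls (0.0508 and 0.0555), and the replicate block that of H2-D1 (0.0518). The difference of B2m, the light chain gene, was 0.29 (adjusted p = 0.261, edgeR).

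Among 6 tested genes for the contact with CD4+ T cells, 4 were not called and 2 rose, where 13.3% of all tested genes did. Btnl2, a butyrophilin-like gene next to the class II cluster whose protein restrains T cell activation in mice, rose from 14.94 to 22.43 CPM to 53.06 to 68.76 CPM (edgeR, log2 fold change 1.63, SE 0.16, adjusted p = 1.7e-04), and Icam1 was the other. The costimulator genes Cd80, Cd86 and Cd40, which mark professional antigen-presenting cells, were too low to test, at 0 to 0.187 CPM. Icosl stood at 7.09 to 10.31 CPM over the 6 libraries, with overlapping groups.

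Markers of immune cells were low beside the class II transcripts. The summed level of H2-Aa, H2-Ab1, H2-Eb1 and Cd74 was 637 to 1603 CPM in the controls and 1680 to 2014 CPM in the Klf5-KO-labelled libraries. The 8 leukocyte markers summed to 5.47 to 8.99 and 8.44 to 14.2 CPM, of which Rac2 rose (edgeR, log2 fold change 1.04, adjusted p = 0.0117; 0.0519 without Klf5-KO replicate 1) and Ptprc, the CD45 gene, stood at 1.154 to 2.79 and 2.82 to 3.87 CPM (adjusted p = 0.0912). The 8 B cell markers summed to 5.08 to 6.13 and 4.10 to 4.38 CPM, mostly Cd79a, with Ms4a1 and Cd22 at 0 to 0.117 CPM, and Cd79b fell (adjusted p = 0.0051, edgeR). Dendritic cell markers other than Zbtb46, 7 genes, summed to at most 0.330 CPM, with Cd209a at 0 in all 6 libraries and Flt3 and Clec9a at 0 in most, while Zbtb46 rose from 0.661 to 0.701 CPM to 1.54 to 2.58 CPM (adjusted p = 0.0019, edgeR). Macrophage markers other than Cd68, which lysosomes of many cell types hold, summed to 1.65 to 4.37 and 2.99 to 3.56 CPM, with Adgre1, C1qa and Csf1r at 0 to 0.190 CPM. Mrc1 stood at 0.467 to 0.797 CPM in the controls and 0.912 to 0.997 CPM in the Klf5-KO-labelled libraries (adjusted p = 0.0966, edgeR). Lyz2 stood at 0.357 to 3.196 and 1.125 to 1.657 CPM, with overlapping groups. None of the 5 tested macrophage markers was called.

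T cell markers followed the class II order within the controls but not between the groups. Of 13 listed T cell and innate lymphoid markers, 12 summed to 18.4, 2.74 and 9.86 CPM in control replicates 1, 2 and 3 and to 6.95, 4.74 and 6.91 CPM in Klf5-KO replicates 1, 2 and 3. Gzma and Gzmb, granzymes of intraepithelial lymphocytes, made up 13.4, 1.22 and 6.04 CPM of this in the controls and 4.67, 3.13 and 4.85 CPM in the Klf5-KO-labelled libraries. Control replicate 3 thus had more T cell transcript and less class II than any Klf5-KO-labelled library. Of the 9 tested genes among the 13 none rose, also at an unadjusted p under 0.05, and Cd4 fell, from 0.817 to 1.26 CPM to 0.203 to 0.290 CPM (adjusted p = 0.0011, edgeR). Among epithelial lineages, 6 of 9 tuft cell and 4 of 9 enterocyte markers rose, and 3 of 7 goblet cell and 6 of 8 enteroendocrine markers fell, beside 13.3% of all tested genes higher and 12.5% lower. The calls of Dclk1, Alox5ap, Fabp1, Zg16, Chga, Cck and Gip among these were lost under at least 1 alternative. The part of lymphocytes and of these lineages in the class II differences was not tested.

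**Figure D5:**
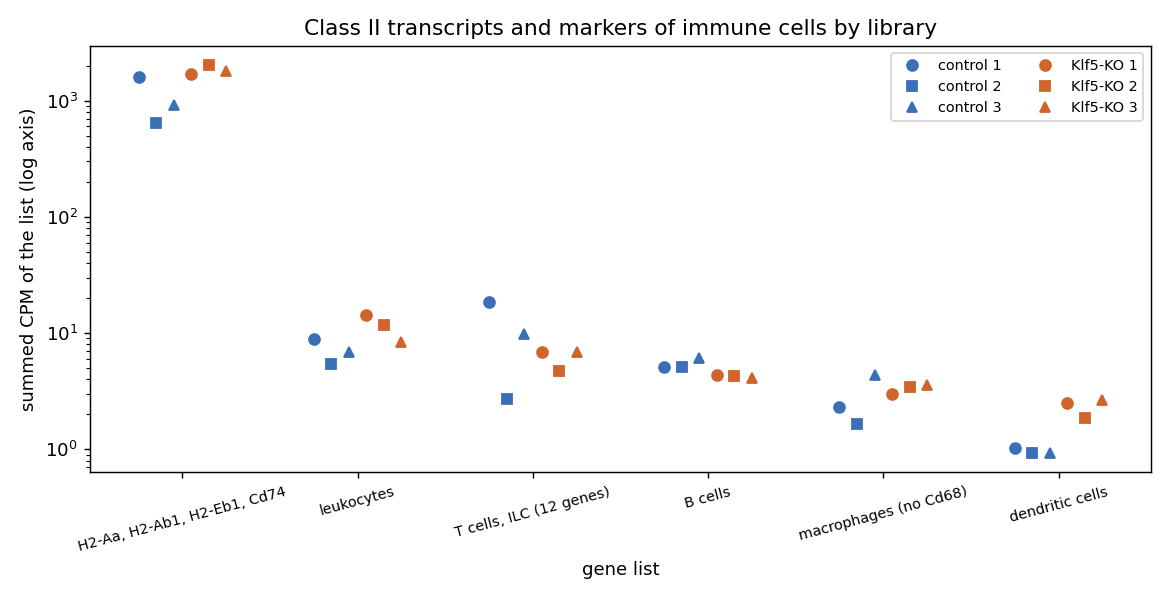
Summed CPM per library, on a log axis, of 4 class II genes and of marker lists of immune cells; blue points are controls and orange points Klf5-KO-labelled libraries. Class II sums of 637 to 2014 CPM lie far above all marker sums, none of which exceeds 18.4 CPM, and the T cell sum is highest in control 1.

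Likeness to the class II profile was measured as Pearson's r between each of 9997 protein-coding genes averaging 5 CPM or more and the mean log2 level of H2-Aa, H2-Ab1, H2-Eb1 and Cd74. Over the 6 libraries, H2-DMa and H2-DMb1 had r of 0.99 and 0.98 with it, Ciita 0.95 and Ctss −0.21. Outside the members the closest were Nampt (0.99), Tbcb (0.99), Exosc3 (0.99), Cbwd1, Gtf2h2 and Cenpw (each 0.98), H2-D1 (0.98) and Stambpl1 (0.97). All but H2-D1 were not called, with log2 fold changes of 0.08 to 0.39. Over deviations from the group means, the closest were Gng11, Casp12, Nampt, Arrdc3, Zfp326, Cpne2, Exosc3 and Bst2, with r of 0.984 to 0.997, and Ciita had 0.98. These r rest on 6 libraries that share sort and processing, and describe them only.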

How the data were processed

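RNA was sequenced from 6 libraries, 3 control and 3 labelled Klf5-KO, made from total RNA after ribosomal RNA removal with a stranded kit, per the labels' protocols. The deposited files hold raw, whole-number counts of reads for each gene. Per the file headers, the authors counted reads with featureCounts 1.4.3-p1 on the reverse strand against GENCODE vM16, with no option for pairs or multi-mapped reads; the submitters' processing notes name STAR 2.5.2a, mm10 and DESeq2 1.18.1.

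Gene IDs were given GENCODE vM21 symbols, which matched 53274 of 53379. The main test was edgeR 4.0.16 under R 4.3.3 (filterByExpr, TMM factors, quasi-likelihood F test, group as the only term), with Benjamini-Hochberg adjustment over 19339 genes and a threshold of 0.05. SE is the log2 fold change over the root of F, and CPM uses TMM-scaled sizes of 61961142 to 77112161 counts. The biological coefficient of variation was 17%. Libraries of a group differed beyond sampling noise (chi-square over its degrees of freedom 44.8 to 149). Same-numbered libraries did not deviate together, so no pairing was used. Alternatives were other scalings and filters, DESeq2 1.42.0, limma-voom (limma 3.58.1), robust dispersion, the replicate number or sex as a term, and leaving out each library.

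The members, lists and alternatives were chosen with earlier results of these data known, so lists are described by counts and not tested. Named genes are the members, up to 4 called genes of each list with the smallest adjusted p or its most abundant gene, 8 set regulators whatever their result, and the 8 genes of highest r; others were named after their values were seen, and some genes of the lists are not reported here. The test was tried on simulated counts.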

Additional observations from a re-analysis of the deposited data

How the results depend on the processing

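The number of class II members called higher, 2 in the main analysis, was 7 with no low-count filter, 6 with limma-voom, 6 with sex as a covariate, 5 with the replicate number as a block (replicate block), 1 with robust dispersion, 0 at a threshold of 0.01, and 0 to 7 with each library left out in turn. It was 2 with RLE or upper-quartile scaling, with ribosomal RNA-like and mitochondrial genes removed, with CPM above 1 required in 3 libraries and with DESeq2. Each member's change kept its sign under all of these that tested it, and 7 were above 0 in each; H2-DMb2 was not tested with CPM above 1 required. The count of genes higher, 2581, was 1226 at a threshold of 0.01 and 1605 to 2740 with each library left out; that of genes lower, 2413, was 1118 and 1467 to 2664. Samples of the same number correlated at −0.07, 0.08 and −0.04 in their deviations, and control replicate 1 was closest to Klf5-KO replicate 3 (0.14), so the block marks only a number. Scaling moved the median of all genes by less than 0.1 on the log2 scale. Depth limits H2-DMb2, H2-Oa, H2-Ob and the immune markers, which had few counts. The cause of the changes between settings was not tested.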

Other observations

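Among the 24 genes that stood at least 2 times higher in control replicate 1 than the mean of the other controls, a set picked from these values, were the class I genes H2-Q5, H2-Q6 and H2-Q7 and the lectin genes Reg3b and Reg3g. H2-Q6 had 40.76, 10.97 and 12.62 CPM in control replicates 1, 2 and 3 and 27.19 to 32.12 CPM in the Klf5-KO-labelled libraries. The peptide transporter gene Slc15a2 had 26.65, 0.285 and 5.42 CPM in the controls and 15.55 to 27.49 CPM in the Klf5-KO-labelled libraries. The paralogs H2-Q5, H2-Q6 and H2-Q7 are near-identical, so their split is uncertain. Reg3g had 221, 31.16 and 137.4 CPM in the controls and 1747, 5057 and 1750 CPM in the others, so it followed the class II order within the controls but lay far above control replicate 1 in the other group.

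The circadian clock genes Per2 and Cry1 were in the same set. Per2 had 71.49, 43.52 and 26.39 CPM in the controls and 35.58 to 38.45 CPM in the Klf5-KO-labelled libraries. Cry1 had 23.71, 10.14 and 10.67 CPM in the controls and 13.12 to 21.65 CPM in the Klf5-KO-labelled libraries.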
